A study of Rattus norvegicus and Bos taurus with 6 samples.

Results

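The 9 genes described here code for proteins of the β-adrenergic and cyclic AMP (cAMP) pathway, and they were chosen by symbol, matched in any case, from 38697 genes listed for the rat libraries of the Parse platform, 25629 listed for the rat library of the 10x platform and 36075 listed for the cow library. They are Adrb1 and Adrb3 (β1- and β3-adrenergic receptors), Gnas (the stimulatory G protein α subunit), Adcy3 and Adcy5 (adenylyl cyclases), Pde3b, Pde4b and Pde4d (cAMP phosphodiesterases) and Prkar2b (the RIIβ regulatory subunit of protein kinase A). All 9 were found in each of the 6 libraries, and rat-style symbols are used for the cow genes too.

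The study worked out how to isolate nuclei from frozen white fat of rat and cow for single-nucleus RNA sequencing, with perivascular fat of the rat thoracic aorta as a reference. The 5 rat libraries came from male SS/HsdMcwiCrl (Dahl salt-sensitive) rats bought from Charles River Laboratory, kept at 22 °C and labelled as free of disease. They cover mesenteric perivascular fat (mesPVAT) on both platforms, and retroperitoneal (RP) fat, thoracic aorta perivascular fat (taPVAT) and subscapular brown fat (BAT) on Parse only. The sixth library held subcutaneous flank white fat of female Holstein cattle that were lactating, on Parse. No sample received a drug or other treatment, all tissue was snap frozen, and the labels give no age and do not say how many animals went into a library. The 10x library formed batch 1 and was made from nuclei sorted by DNA stain, whereas the 5 Parse libraries formed batch 2 and were fixed. The study names the genome build Rnor_6.0 for the 10x reads and GRCr8 for the rat Parse reads. Platform, isolation, genome build and batch therefore cannot be told apart between the 10x library and the rat Parse libraries, mesPVAT included. Levels of the 10x library set beside those of Parse are a description only. The white rat and cow tissues on Parse were spun at a higher speed than taPVAT, and the study states no speed for BAT.

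In fat cells, noradrenaline released by sympathetic nerves binds β-adrenergic receptors, which act through the stimulatory G protein to switch on adenylyl cyclase. The cAMP made by the cyclase binds the regulatory subunits of protein kinase A and frees the catalytic subunits, which drive the breakdown of stored triglyceride and, in brown fat, heat production by the uncoupling protein Ucp1. Phosphodiesterases end the signal by breaking cAMP down. Adrb3 is the receptor best known for adipocytes of rodents, Pde3b is the phosphodiesterase through which insulin restrains lipolysis, and RIIβ is the regulatory subunit typical of fat and brain.

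Each library held between 2297 and 5887 called nuclei, and a median nucleus held 161 unique molecular identifiers (UMIs, counted RNA molecules) in the 10x library, 346 in mesPVAT, 213 in RP fat and 3530 in cow fat, with 1246 in taPVAT and 1706 in BAT. Total UMIs ran from 845316 in RP fat to 16827260 in cow fat, so that the 3 counts taken as the detection floor equalled 3.55 CPM (a gene's UMIs per 1000000 UMIs of its library) in RP fat and 0.178 CPM in cow fat. In the files the library labelled mesPVAT was deeper per nucleus than the library labelled RP fat, the reverse of the order in the study's text, so that both are called here by their labels. Whether the 2 labels were exchanged was not tested, and every ratio of mesPVAT over RP fat would turn if they were. No nucleus barcode was shared between libraries. There was 1 library per tissue and platform. No comparison between tissues therefore has a replicate check or a p-value, and the 95% intervals given here are exact Poisson (levels), binomial (shares) or conditional binomial (ratios) intervals that cover counting error only. As a technical guide, the 9 genes' levels in separate first-round barcoding wells of a Parse library differed by 1.00 to 1.73 times between the highest and the lowest well, leaving out Adrb3 in cow fat, whose 3 UMIs lay in 1 of 2 wells.

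The tissue labels were checked against marker lists. The list of brown adipocyte markers summed to 4523 CPM in taPVAT and 5258 CPM in BAT, against 383 in mesPVAT, 505 in RP fat, 157 in the 10x library and 142 in cow fat. Ucp1, the defining gene of that list, stood at 1782 CPM in taPVAT and 2072 CPM in BAT. It was also present at 63.4 CPM in mesPVAT and 89.9 CPM in RP fat, both labelled white, but was at 1 UMI in the 10x mesPVAT library. The summed adipocyte markers were lowest in RP fat (1346 CPM) and cow fat (2680 CPM, where Adipoq and Pparg were not matched by symbol), and between 3301 and 8228 CPM elsewhere. In a bulk sum over nuclei, fewer nuclei of a type and less RNA per nucleus cannot be told apart.

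Adrb3, the β3-adrenergic receptor, lies on rat chromosome 16 (GRCr8, 71544603 to 71547410), a gene of 2.81 kb. Its level was 330 CPM in BAT (95% interval 316 to 344), 304 in taPVAT (289 to 320), 189 in 10x mesPVAT (166 to 215), 76.1 in mesPVAT (63.4 to 90.6), 36.7 in RP fat (24.9 to 52.1) and 0.178 in cow fat (3 UMIs, 0.0368 to 0.521). The 2 brown tissues thus stood next to each other at the top of the Parse libraries, the white rat tissues lay below them with intervals that did not overlap, and the cow level was at the detection floor. A UMI for Adrb3 was seen in 36.2% of BAT nuclei, 28.8% of taPVAT nuclei, 3.63% of mesPVAT nuclei, 0.998% of RP fat nuclei and 0.131% of cow nuclei. Depth differed between these libraries. Nuclei with at least 200 UMIs were therefore thinned to 200, which kept 2099 of 5887 nuclei in 10x mesPVAT, 1503 of 2805 in RP fat, 2552 of 3028 in mesPVAT and all in the other 3 libraries. The shares of these nuclei with an Adrb3 UMI were 5.85% in BAT, 4.69% in taPVAT, 4.14% in 10x mesPVAT, 1.14% in mesPVAT and 0.399% in RP fat, with 0 of 2297 cow nuclei. By the floor of 3 counts, that zero allows a share of up to 0.131% (3 nuclei of 2297), and its exact interval reaches 0.160%. In the nuclei of RP fat with at least 500 UMIs the Adrb3 level was 21.8 CPM.

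Adrb1, the β1-adrenergic receptor known mainly from the heart, lies on chromosome 1 (GRCr8, 265777103 to 265780114). Its level was 87.3 CPM in taPVAT (79.3 to 95.7), 73.8 in BAT (67.2 to 80.8), 66.2 in RP fat (50.0 to 86.0), 50.1 in mesPVAT (39.9 to 62.1), 33.9 in 10x mesPVAT (24.5 to 45.9) and 5.05 in cow fat (4.03 to 6.25). The order differed from that of Adrb3. Neighbours in this order among the 5 rat libraries had overlapping intervals, RP fat with BAT included, and cow fat alone stood apart below them. Per kb of gene span, introns included, Adrb3 was at 117 CPM per kb and Adrb1 at 24.5 in BAT. In RP fat they were at 13.1 (8.87 to 18.5) and 22.0 (16.6 to 28.6), with intervals that overlapped. Whether UMIs scale with gene span was not tested, so that values per kb are a description only.

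Gnas codes for the G protein subunit through which all β-adrenergic receptors signal, and it lies on chromosome 3 (GRCr8, 183489648 to 183554570), a locus with several promoters. Its level was 3318 CPM in BAT (3274 to 3364), 3156 in taPVAT (3107 to 3205), 302 in cow fat (294 to 310), 246 in mesPVAT (223 to 271), 211 in RP fat (181 to 244) and 54.1 in 10x mesPVAT (42.0 to 68.8). No other member had so wide a gap between the brown tissues and all other libraries. The 10x annotation lists a second gene under the same symbol with 6 UMIs, which was not added. Of the nuclei thinned to 200 UMIs, 39.3% in BAT and 35.8% in taPVAT held a Gnas UMI, against 5.53% in cow fat, 5.02% in mesPVAT, 4.19% in RP fat and 1.05% in the 10x library.

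Of the 2 adenylyl cyclases, Adcy5 was the higher per kb in each rat Parse library. Adcy5 (chromosome 11, GRCr8, 78976861 to 79123343) codes for a cyclase that is inhibited by calcium. Its level was 584 CPM in 10x mesPVAT (542 to 628), 441 in taPVAT (423 to 460), 438 in BAT (422 to 455), 171 in mesPVAT (151 to 192), 153 in RP fat (127 to 181) and 143 in cow fat (138 to 149). The intervals of taPVAT and BAT overlapped, as did those of mesPVAT with RP fat and of RP fat with cow fat. Averaged over nuclei in place of summed, the cow level of Adcy5 was 90.5 CPM. Adcy3 (chromosome 6, GRCr8, 32819602 to 32923174), a cyclase first known from olfactory neurons, had a narrow range on Parse: 49.7 CPM in RP fat (35.8 to 67.2), 42.9 in mesPVAT (33.5 to 54.1), 34.1 in taPVAT (29.2 to 39.6), 32.3 in BAT (28.0 to 37.0) and 28.3 in cow fat (25.8 to 30.9). Each of these overlapped its neighbours. The 10x library held 8 UMIs of Adcy3.

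The 3 phosphodiesterases had 3 different orders. Pde3b (chromosome 1, GRCr8, 178041207 to 178204503) was at 673 CPM in BAT (653 to 693), 671 in 10x mesPVAT (626 to 718), 653 in taPVAT (631 to 676), 322 in cow fat (313 to 331), 179 in mesPVAT (159 to 201) and 136 in RP fat (112 to 163). The first 3 libraries could not be separated by counting error, and Pde3b was the only member with a cow level between the brown and the white rat tissues of Parse beside Gnas. With the study's own limits on UMIs and genes per nucleus, the cow level of Pde3b was 151 CPM, below that of mesPVAT. Pde4d (chromosome 2, GRCr8, 41748337 to 43262567), the longest of the 9 genes at 1514 kb, was at 1741 CPM in taPVAT, 1635 in BAT, 638 in RP fat, 580 in mesPVAT, 533 in cow fat and 344 in 10x mesPVAT. In the 10x nuclei with at least 500 UMIs the Pde4d level was 651 CPM. Its level per kb of gene span was 1.08 CPM in BAT, against 4.12 for Pde3b.

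Pde4b (chromosome 5, GRCr8, 122028956 to 122598267), a phosphodiesterase known from immune cells, was highest in the white rat tissues of Parse. It stood at 214 CPM in RP fat (184 to 248), 185 in mesPVAT (165 to 207), 66.3 in taPVAT (59.4 to 73.7), 66.3 in 10x mesPVAT (52.7 to 82.2), 49.4 in BAT (44.1 to 55.2) and 7.84 in cow fat (6.56 to 9.30). The mesenteric tissue thus had a lower Pde4b level on 10x than on Parse, and the source of this difference was not tested. In the 10x nuclei with at least 500 UMIs the Pde4b level was 155 CPM.

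Prkar2b (chromosome 6, GRCr8, 54291143 to 54381639) codes for the subunit that holds protein kinase A inactive until cAMP binds. Its level was 1407 CPM in BAT (1378 to 1437), 1283 in taPVAT (1253 to 1315), 882 in 10x mesPVAT (831 to 936), 229 in mesPVAT (206 to 253), 108 in RP fat (86.7 to 132) and 55.7 in cow fat (52.2 to 59.4). The counting intervals of neighbours in this order did not overlap, but wells within BAT differed by more than counting error. The lowest BAT well was at 1312 CPM (1265 to 1361) and the highest at 1485 (1438 to 1533). That lowest well overlapped the highest taPVAT well, at 1307 CPM (1247 to 1370). Of the nuclei deep enough to be thinned to 200 UMIs, 19.3% in BAT, 17.5% in 10x mesPVAT, 15.9% in taPVAT, 3.84% in mesPVAT, 2.06% in RP fat and 0.697% in cow fat held a Prkar2b UMI.

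**Figure D1:**
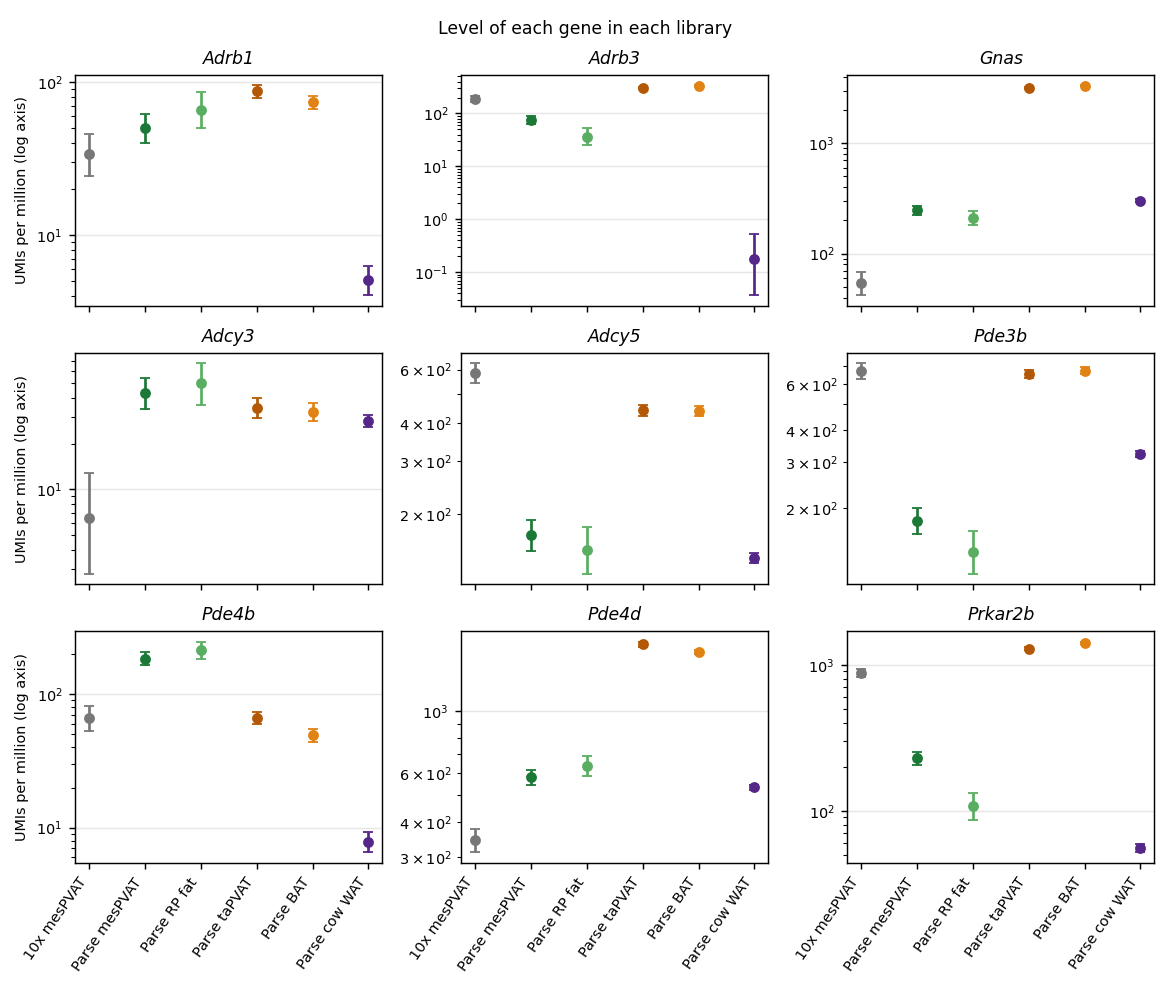
Level of each of the 9 genes in the 6 libraries, in CPM on a log axis, with exact 95% Poisson intervals. BAT and taPVAT lie close together for every gene, Gnas stands at 3318 and 3156 CPM there against 302 or less elsewhere, and Adrb3 in cow fat is at the floor with 3 UMIs.

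Nuclei were next sorted by which single one of 5 marker genes they held: Plin1 (which coats the lipid droplet of adipocytes), Ptprb (endothelial cells), Pdgfra (adipocyte stem and progenitor cells), Ptprc (immune cells) or Notch3 (mural cells of vessel walls). Nuclei with more than 1 marker were set aside as mixed and numbered 594 of 2708 in taPVAT, 531 of 2699 in BAT and 733 of 2297 in cow fat. No doublet caller was run, and doublets were not told apart from nuclei that took up free RNA. In the shallow libraries most nuclei held none of the 5, with 4993 of 5887 in 10x mesPVAT, 1839 of 3028 in mesPVAT and 2245 of 2805 in RP fat. Class values therefore rest mainly on BAT, taPVAT and cow fat.

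Adrb3 was concentrated in Plin1-only nuclei of the brown tissues. In BAT it was at 445 CPM in Plin1-only nuclei (423 to 469, 52.5% of nuclei positive), against 29.1 in Ptprb-only nuclei, 42.1 in Ptprc-only nuclei (2 UMIs) and 16.5 in Notch3-only nuclei. In taPVAT it was at 457 CPM in Plin1-only nuclei (429 to 485, 47.4% positive) and at 53.1 CPM or less in the other 4 classes. Immune nuclei should lack Ucp1, yet 9.80% of the Ptprc-only nuclei of BAT held a Ucp1 UMI at a median depth of 881 UMIs, against 84.2% of Plin1-only nuclei at a median of 2045. The corresponding shares for Adrb3 were 3.92% and 52.5%, and the low shares outside Plin1-only nuclei were not read as expression.

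Prkar2b, Pde3b and Gnas had their highest class level in the same nuclei. In BAT, Prkar2b was at 1846 CPM in Plin1-only nuclei (1799 to 1893, 85.9% positive) and between 90.9 and 232 CPM in the others. Pde3b was at 906 CPM there (874 to 940) and between 65.4 and 190 elsewhere. Gnas was at 4265 CPM there (4195 to 4337, 91.1% positive), and still reached 446 to 821 CPM in the other classes. Plin1-only nuclei were the highest class in taPVAT too, at 1705 CPM for Prkar2b, 885 for Pde3b and 4094 for Gnas in Plin1-only nuclei.

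Adcy5 and Pde4d were high in a second class as well, the Notch3-only nuclei of vessel walls. In BAT, Adcy5 was at 694 CPM in Notch3-only nuclei (553 to 859) and 527 in Plin1-only nuclei (503 to 553), against 41.2 in Ptprb-only nuclei. Pde4d was at 2940 CPM in Notch3-only nuclei (2643 to 3262) and 1918 in Plin1-only nuclei (1871 to 1966) of BAT. In taPVAT the order of these 2 classes was the other way round, with Adcy5 at 436 against 553 CPM and Pde4d at 1775 against 2120, and the intervals of the classes overlapped there. Adrb1 had overlapping intervals in both tissues, with 132 CPM in Notch3-only nuclei of BAT (75.5 to 215) and 95.3 in Plin1-only nuclei (85 to 107), but 46.7 and 110 in taPVAT.

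Adcy3 and Pde4b were low in Plin1-only nuclei. Adcy3 was at 149 CPM in Notch3-only nuclei of BAT (88.1 to 235) and 265 in those of taPVAT (154 to 424), against 21.8 and 25.8 in Plin1-only nuclei. Pde4b was at 264 CPM in Notch3-only nuclei, 232 in Ptprc-only nuclei, 82.4 in Ptprb-only nuclei and 21.8 in Plin1-only nuclei of BAT. In taPVAT the highest Pde4b level was that of Ptprc-only nuclei, at 299 CPM (212 to 411). Plin1-only nuclei thus had the lowest Pde4b level of the 5 classes in both tissues, whereas Adcy3 was lower still in Ptprb-only nuclei of BAT, at 9.69 CPM (2.64 to 24.8).

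In cow fat the classes differed from those of the brown rat tissues for Gnas and Pde4d. Gnas was at 717 CPM in Ptprb-only nuclei (673 to 763, 72.0% positive) and at 104 in Plin1-only nuclei (81.2 to 131), the lowest of the 5 classes. Pde4d was at 1000 CPM in Ptprc-only nuclei (935 to 1069) and 312 in Plin1-only nuclei. In mesPVAT too, Gnas was higher in Ptprb-only nuclei (347 CPM, 258 to 456) than in Plin1-only nuclei (192, 149 to 242), while in RP fat and 10x mesPVAT its classes overlapped. Pde4d was lowest in Plin1-only nuclei of mesPVAT (351 CPM), RP fat (473 CPM) and 10x mesPVAT (115 CPM). Its interval there overlapped that of at least 1 other class, and in RP fat those of all the other 4. In cow fat, Pde3b and Adcy5 kept their highest level in Plin1-only nuclei, at 1051 CPM (975 to 1131) and 566 CPM (511 to 626). Prkar2b was at 105 CPM in Plin1-only nuclei of cow fat (82.5 to 133), against 16.3 to 58.6 in the other 4, and Adrb3 had no UMI in any of the 5 cow classes.

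**Figure D2:**
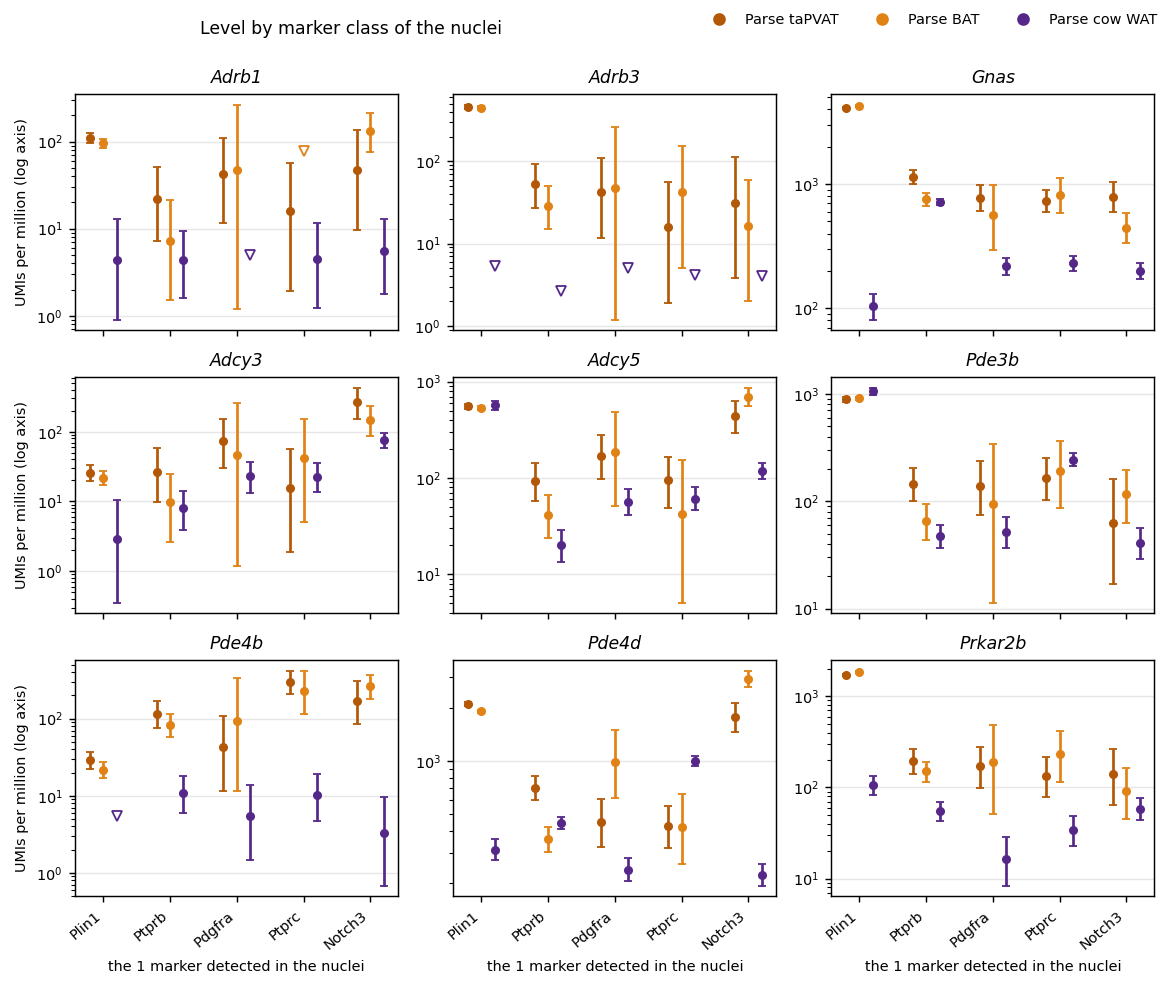
Level of the 9 genes, in CPM on a log axis with exact 95% Poisson intervals, in nuclei that held exactly 1 of the 5 markers; the x axis names that marker and open triangles mark the upper limit where no UMI was counted. Adrb3, Prkar2b and Pde3b peak in Plin1-only nuclei of BAT and taPVAT, Adcy3 peaks in Notch3-only nuclei, and Gnas peaks in Ptprb-only nuclei of cow fat.

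Co-detection was read from the side of the positive nuclei. It used the same marker UMIs that set the classes, so that it is no separate check of them. Of 977 BAT nuclei with an Adrb3 UMI, 950 (97.2%) also held Plin1, against 69.1% of all BAT nuclei. The shares were 94.8% against 60.4% in taPVAT, 81.8% against 22.0% in mesPVAT, 30.8% against 11.3% in 10x mesPVAT and 28.6% against 9.59% in RP fat, where only 28 nuclei were positive. Adrb3 therefore had the highest Plin1 share of the 9 genes in BAT. Adrb1 followed with 92.4%, Pde3b with 92.3%, Adcy5 with 91.3% and Prkar2b with 91.2%, while Pde4d had 82.8%, Gnas 79.2%, Adcy3 71.1% and Pde4b 61.8%. Deep nuclei are more likely to hold any 2 genes, and depth was not matched in these shares. Nuclei with Adcy3 held Notch3 more often than all nuclei did, at 31.9% against 8.15% in BAT and 27.4% against 8.20% in taPVAT. Those with Pde4b held Ptprc at 29.5% against 12.8% in taPVAT and at 13.5% against 5.71% in BAT. In cow fat, 46.3% of Gnas-positive nuclei held Ptprb, against 32.5% of all nuclei.

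All genes were then compared between nuclei with and without a Plin1 UMI within each library, and a gene with at least 20 UMIs was called at a 2-fold difference in CPM. The 9 genes were chosen with earlier results of these data known, and levels were not matched between them and all genes. Counts of members beside the share over all genes, here and between libraries, are therefore a description only. In BAT, 6 of the 9 genes were called higher and 2 lower, against 12.5% and 26.6% of all genes tested. In taPVAT, 7 were called higher and 2 lower, against 9.51% and 30.1%. In mesPVAT, 4 were higher and none lower (3.76% and 12.1% of all genes), and in RP fat 2 were higher and none lower (6.03% and 13.3%). In 10x mesPVAT, 5 of the 8 with enough UMIs were higher and 2 lower (4.17% and 17.6%), Adcy3 being left out. In cow fat, 2 of 8 were higher and 1 lower (5.66% and 9.16%), Adrb3 being left out. The median log2 ratio of the members tested was 1.28 in BAT, where that of all genes was -0.30, 1.77 in taPVAT (-0.44), 1.10 in 10x mesPVAT (-0.12), 0.14 in cow fat (-0.16), -0.13 in RP fat (-0.10) and -0.17 in mesPVAT (-0.30).

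By gene, Adrb3 and Prkar2b were called higher in Plin1-positive nuclei of all 5 rat libraries. In RP fat, where the whole library held 31 Adrb3 UMIs, and in 10x mesPVAT the interval of Adrb3 reached under 2-fold. The Prkar2b call in RP fat rested on few counts as well, with 91 UMIs in all and 24 in Plin1-only nuclei. Adrb3 was 13.5-fold higher in BAT (interval 9.44 to 20.1), 8.75-fold in mesPVAT (5.48 to 14.6), 8.18-fold in taPVAT (6.09 to 11.3), 2.80-fold in RP fat (1.14 to 6.33) and 2.37-fold in 10x mesPVAT (1.77 to 3.15). The corresponding values for Prkar2b were 8.72, 3.67, 6.34, 2.74 and 2.25, with 1.85 in cow fat (1.62 to 2.11), under the 2-fold call. Pde3b and Adcy5 were called in every library other than RP fat, where their ratios were 1.53 and 1.41 with intervals that included 1. The ratios in cow fat were 6.68 (6.23 to 7.17) for Pde3b and 5.82 (5.26 to 6.44) for Adcy5, which made these the only members called higher there.

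Gnas split the libraries. It was 4.51-fold higher in Plin1-positive nuclei of BAT (4.22 to 4.83) and 3.40-fold in taPVAT (3.20 to 3.62), but the ratio was 0.692 in mesPVAT (0.551 to 0.863), 0.916 in RP fat (0.552 to 1.45), 0.709 in 10x mesPVAT (0.293 to 1.49) and 0.581 in cow fat (0.547 to 0.618). Pde4d was likewise above 1 in the brown tissues, at 2.31 in taPVAT and 1.78 in BAT, and below 1 elsewhere, down to 0.368 in 10x mesPVAT (0.241 to 0.540), with intervals that included 1 in RP fat and cow fat. Adrb1 was at 5.20 in taPVAT, 3.22 in 10x mesPVAT and 2.43 in BAT, but at 0.844 in mesPVAT, 0.671 in RP fat and 1.25 in cow fat with intervals that included 1. Pde4b was lower in Plin1-positive nuclei in each library, by 3.73-fold in 10x mesPVAT, 3.42-fold in taPVAT, 3.38-fold in BAT and 2.91-fold in cow fat, while its interval in RP fat (0.471 to 1.3) included 1. Adcy3 was 2.37-fold lower in BAT and 2.04-fold lower in taPVAT.

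**Figure D3:**
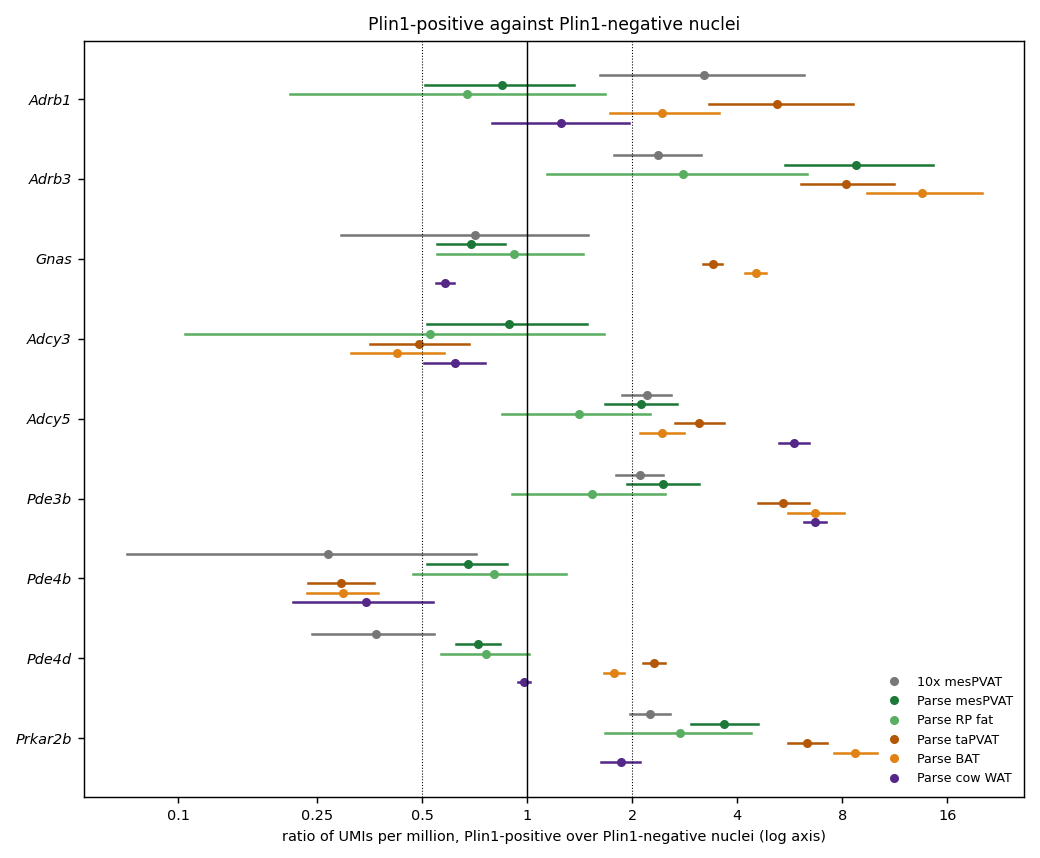
Ratio of CPM in Plin1-positive over Plin1-negative nuclei for the 9 genes in each library, on a log axis, with exact conditional binomial 95% intervals and members under 20 UMIs left out. The ratios of Adrb3 and Prkar2b lie above 2 in all 5 rat libraries, though not all of their intervals do. Pde4b lies below 1 throughout, and Gnas lies above 1 in BAT and taPVAT only.

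The promoter windows that RefSeq gives for the members were searched for letters of the cAMP response element, because several targets of this pathway are switched on through it. The tables matched 6 of the 9 genes with 13 windows, of which the 250 bases before the start were used. Shown are the windows of a receptor, a cyclase and a phosphodiesterase that end at the start of the annotated gene (GRCr8): Adrb1 at chr1:265776853-265777102 on the plus strand, Adcy5 at chr11:79123344-79123593 on the minus strand and Pde4b at chr5:122028706-122028955 on the plus strand. Capitals mark the half-site TGACG of the response element or the GC box GGGCGG, searched on both strands, so that a GC box of the other strand reads CCGCCC.
Adrb1: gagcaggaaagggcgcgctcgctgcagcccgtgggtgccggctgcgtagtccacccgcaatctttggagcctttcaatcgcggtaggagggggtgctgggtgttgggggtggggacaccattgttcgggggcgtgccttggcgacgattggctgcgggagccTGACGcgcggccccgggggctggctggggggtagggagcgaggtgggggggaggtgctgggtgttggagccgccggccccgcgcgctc
Adcy5: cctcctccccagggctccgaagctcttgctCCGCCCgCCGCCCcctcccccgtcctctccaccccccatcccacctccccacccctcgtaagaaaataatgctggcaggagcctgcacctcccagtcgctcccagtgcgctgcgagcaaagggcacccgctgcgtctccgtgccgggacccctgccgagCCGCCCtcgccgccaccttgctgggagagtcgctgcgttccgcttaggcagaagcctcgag
Pde4b: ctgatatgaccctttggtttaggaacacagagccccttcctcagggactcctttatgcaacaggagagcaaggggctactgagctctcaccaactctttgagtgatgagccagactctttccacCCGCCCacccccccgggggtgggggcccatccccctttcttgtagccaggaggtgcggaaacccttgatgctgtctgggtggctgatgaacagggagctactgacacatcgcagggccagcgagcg
The Adrb1 window holds 1 half-site, 88 bases before the start. The Adcy5 window holds 3 GC boxes, 220, 213 and 61 bases before the start, and the Pde4b window holds 1, at 126 bases. None of the 13 windows held the full element TGACGTCA, which 1.59% of 33469 rat promoter windows of this length hold. The half-site, which is part of the full element, is in 18.2% of them and the GC box in 30.5%. These matches are letters in a window and were not set against any binding data.

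The same call was made between libraries over all nuclei. Between BAT and taPVAT, 0 of 9 genes were called higher or lower, where 1.1% of all genes were called higher in BAT and 5.97% lower. The ratios of BAT over taPVAT lay between 0.745 for Pde4b (0.637 to 0.872) and 1.10 for Prkar2b (1.06 to 1.13), and Adrb3 was at 1.08 (1.01 to 1.16). Within Plin1-positive nuclei 0 of 9 were called too (1.18% and 4.28% of all genes). Few genes of any kind were called here, so that the count is near the share over all genes, and the counting intervals of all 9 exclude a 2-fold difference.

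BAT over mesPVAT, a brown against a white rat tissue on Parse, gave 6 genes higher and 1 lower, against 9.86% and 48.6% of all genes. The median log2 ratio was 1.5 for the 9 and -0.93 over all genes. Gnas was 13.5-fold higher in BAT (12.2 to 14.9), Prkar2b 6.15-fold (5.55 to 6.84), Adrb3 4.34-fold (3.62 to 5.23), Pde3b 3.75-fold (3.34 to 4.24), Pde4d 2.82-fold (2.64 to 3.02) and Adcy5 2.56-fold (2.27 to 2.91). Adrb1 was at 1.47 (1.16 to 1.88) and Adcy3 at 0.753 (0.572 to 1.00), neither called, and Pde4b was 3.75-fold lower (3.19 to 4.41). Plin1 itself was 1.94-fold higher in BAT and Ucp1 32.7-fold. With the library labelled RP fat in place of mesPVAT, the same number of members was called, and the log2 ratio was 3.98 for Gnas, 3.71 for Prkar2b, 3.17 for Adrb3, 2.31 for Pde3b, 1.52 for Adcy5, 1.36 for Pde4d and -2.12 for Pde4b.

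Among nuclei that held Plin1, the ratios of Gnas, Pde4d, Pde4b and Adrb1 lay further from 1 than over all nuclei. Those of Prkar2b, Pde3b, Adrb3 and Adcy5 lay nearer to 1. In these nuclei, 5 members were called higher and 1 lower in BAT, against 14.8% and 37.2% of all genes. Gnas was then at 19.9 (16.5 to 24.2), Prkar2b at 3.80 (3.35 to 4.32), Pde4d at 3.79 (3.36 to 4.30), Pde3b at 2.69 (2.31 to 3.16) and Adrb3 at 2.17 (1.78 to 2.67). Adcy5 at 1.87 (1.58 to 2.21) and Adrb1 at 1.83 (1.23 to 2.83) stayed under 2-fold, and Pde4b was 3.98-fold lower. Depth per nucleus moved with this comparison, with a median of 1706 UMIs in BAT and 346 in mesPVAT over all nuclei. Among Plin1-positive nuclei the medians were 2202.5 and 605. The part of depth in the result was not tested. Whether the spin speed differed too is not known, since none is stated for BAT.

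The library labelled mesPVAT had 2 members higher than the library labelled RP fat and none lower, against 5.88% and 9.79% of all genes. These were Prkar2b at 2.13 (1.69 to 2.70) and Adrb3 at 2.07 (1.39 to 3.18), and the other 7 lay between 0.756 and 1.32. Plin1 moved with them, at 2.69 (2.42 to 3.00). Within Plin1-positive nuclei Adrb3 alone was called, at 2.14 (1.09 to 4.81), with 12.8% of all genes higher and 11.8% lower. A count of 1 in 9 is near the share over all genes, and RP fat held only 31 Adrb3 UMIs in all. In the same nuclei Prkar2b was at 1.80 (1.20 to 2.80). Ucp1 was also present in both libraries, at 39.6 CPM in Plin1-positive and 76.2 CPM in Plin1-negative nuclei of mesPVAT. That log2 ratio of -0.95 turned to 0.81 when nuclei were classed by marker lists and to 0.06 with single-marker classes. Leaving out all nuclei with a Ucp1 UMI left each of the 9 levels within its counting interval in both libraries, which is 18 of 18 values. This took out only 96 of 3028 nuclei in mesPVAT and 69 of 2805 in RP fat. So few nuclei could hardly move a level, and nuclei whose Ucp1 RNA went undetected stayed in. No conclusion is therefore drawn from it.

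Cow fat over BAT had 0 members higher and 8 lower, against 29.7% and 19.5% of the genes matched by symbol. Species, genome annotation, sex, tissue, a finer filter used for cow samples only and perhaps spin speed cannot be told apart here. Whether the gene models of cow and rat capture reads alike was not tested, so that these ratios are a description only. Adrb3 was 1849-fold lower (632 to 8975), resting on the 3 cow UMIs, Prkar2b 25.3-fold (23.6 to 27.1), Adrb1 14.6-fold (11.6 to 18.6) and Gnas 11.0-fold (10.7 to 11.3). Pde4b was 6.30-fold lower, Pde4d 3.07-fold, Adcy5 3.06-fold and Pde3b 2.09-fold, and Adcy3 was at 0.876 (0.742 to 1.04). Plin1 was 15.3-fold lower. Within Plin1-positive nuclei 6 members were called lower and none higher (20.9% and 30.8% of all genes). Adcy5 at 0.583 (0.549 to 0.619) and Pde3b at 0.833 (0.799 to 0.870) were then no longer past 2-fold, whereas Prkar2b was 21.5-fold and Gnas 18.0-fold lower. Of the 401 Plin1-positive cow nuclei, 111 held no other class marker. In those Adcy5 was at 566 CPM, against 527 in Plin1-only nuclei of BAT, Pde3b at 1051 against 906 and Gnas at 104 against 4265. The direction of Pde3b thus turned, while the intervals of Adcy5 in the 2 tissues overlapped. The comparisons of BAT with taPVAT, mesPVAT and cow fat share the BAT library.

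**Figure D4:**
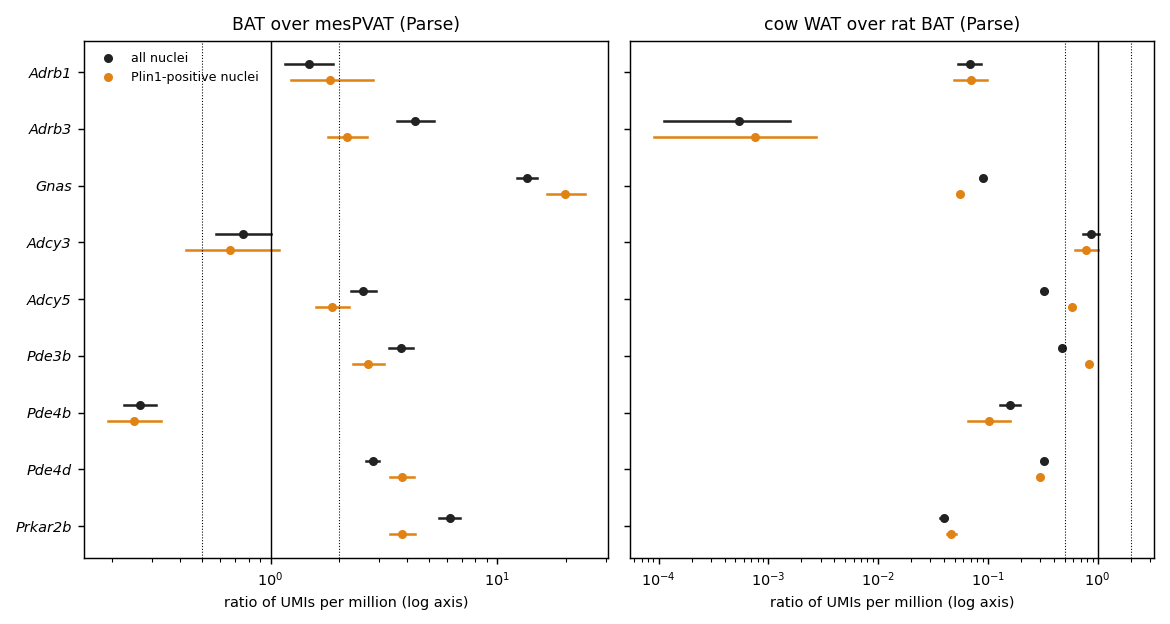
Ratio of CPM between libraries for the 9 genes, over all nuclei and within Plin1-positive nuclei, on a log axis with exact conditional binomial 95% intervals. Shown are BAT over mesPVAT, highest over all nuclei for Gnas at 13.5, and cow fat over BAT, lowest for Adrb3.

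The rest of the pathway was read from a list of 91 other genes. In Plin1-positive against Plin1-negative nuclei, 21 of the 77 tested (27.3%) were higher and 26 (33.8%) lower in BAT, where 12.5% and 26.6% of all genes were. In taPVAT 18 of 77 (23.4%) were higher and 29 (37.7%) lower, against 9.51% and 30.1%. The median log2 ratio of the list was -0.27 and -0.43 in these tissues, close to the -0.30 and -0.44 over all genes. By role, nuclear effectors and target genes went one way in these brown tissues, with 8 of 16 higher and 0 lower in both. Among them were Dio2 (the deiodinase that activates thyroid hormone), 11.4-fold higher in BAT and 10.8-fold in taPVAT, Ppargc1a (a coactivator of mitochondrial genes), 6.89- and 7.89-fold, and Pnpla2 (adipose triglyceride lipase), 6.40- and 5.93-fold. The lipase gene Lipe, also called higher in both, is in the adipocyte marker list too, and Dio2 and Ppargc1a are in the brown adipocyte list. The count of this group thus overlaps with those marker lists. Of the 8 other adenylyl cyclases, Adcy6 and Adcy9 were higher and Adcy4, Adcy7 and Adcy8 lower in both tissues, with Adcy1 lower in taPVAT and Adcy2 lower in BAT. Both EPAC genes, Rapgef3 and Rapgef4, which carry cAMP signals without protein kinase A, were lower in both. Of 12 other phosphodiesterases tested in BAT, 3 were higher and 6 lower, and Rgs2, a brake on G protein signals, was 8.29-fold higher.

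In the other libraries fewer of the list passed the call. Nuclear effectors and targets went both ways in RP fat (4 higher, 2 lower), cow fat (3 higher, 2 lower) and 10x mesPVAT (1 higher, 1 lower). In mesPVAT 4 of them were higher and 0 lower. In mesPVAT 9 of 71 were higher and 5 lower (12.7% and 7.04%, against 3.76% and 12.1% of all genes), with Pnpla2 at 5.13 and the thyrotropin receptor Tshr at 4.47. In RP fat 8 of 63 were higher and 7 lower (12.7% and 11.1%, against 6.03% and 13.3%). In 10x mesPVAT 4 of 59 were higher and 11 lower, 6.78% and 18.6%, which is near the 4.17% and 17.6% over all genes. In cow fat 8 of 81 were higher and 13 lower (9.88% and 16%, against 5.66% and 9.16%), and Ptger3 (a prostaglandin receptor that lowers cAMP) at 12.3, Adora1 (an adenosine receptor of the same kind) at 12.0 and Lipe (hormone-sensitive lipase) at 11.9 led the list.

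Between libraries, 0 of 80 listed genes were higher and 3 lower in BAT than in taPVAT. These 3 were Adcy7, Arrb2 and Gng2 (3.75% of the list, against 5.97% of all genes). Immune markers were lower in BAT too, with Ptprc at 49.9 CPM against 151 and the list of immune markers at 208 CPM against 542, and their part in these 3 genes was not tested. Against mesPVAT, 20 of 81 were higher and 26 lower in BAT (24.7% and 32.1%, against 9.86% and 48.6% of all genes), with a median log2 ratio of -0.15 for the list and -0.93 over all genes. Here again the nuclear effectors and targets stood to one side, with 11 of 16 higher and 0 lower, among them Nr4a2 at 28.9 (15.6 to 60.4), Dio2 at 13.9 (8.94 to 22.8) and Nr4a1 at 12.8 (8.82 to 19.4), the Nr4a genes being early targets of cAMP. The marker genes Lipe, Dio2 and Ppargc1a were among the 11. As log2 ratios, Nr4a2 was at 4.85, Dio2 at 3.80 and Nr4a1 at 3.68. With the library labelled RP fat in place of mesPVAT, these were 3.88, 2.82 and 1.39. Between mesPVAT and RP fat 9 of 77 were higher and 2 lower (11.7% and 2.60%, against 5.88% and 9.79%). Here the nuclear effectors and targets went both ways, with 1 higher (Lipe) and 2 lower (Nr4a1 and Nr4a3). In cow fat against BAT 24 of 81 were higher and 26 lower (29.6% and 32.1%, against 29.7% and 19.5% of all genes), with 0 of 16 nuclear effectors and targets higher and 9 lower, and Dio2 was 134-fold, Ppargc1a 19.7-fold and Nr4a2 11.0-fold lower.

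Genes whose levels ran most like those of each member were found by Pearson's r of log CPM over 24 points, the 6 classes including nuclei without a marker in each of the 4 rat Parse libraries, among 7521 genes. These points share libraries and depth, so that r is a description only. Adrb3 was most like Cluh (0.89), Acsl1 (0.88), which activates fatty acids, and Retsat (0.87). Pnpla2 (0.90) was among the genes most like Prkar2b, and Gnas was most like Lrp6 (0.92), Vgll4 (0.91) and Fabp3 (0.91). Pde3b was most like Akt2 (0.86), a kinase of the insulin pathway, and Mbp (0.84). The genes most like Adcy3 were Carmn (0.81), a smooth muscle transcript, and Daam2 (0.80). Adcy5 was most like Zfhx3 (0.78) and Pdzrn3 (0.78), and next like the member Pde4d (0.77), while Pde4d was most like Ntrk3 (0.86) and Slc24a3 (0.82). Pde4b was most like Fam107b (0.79) and Abr (0.78), and for Adrb1 the values were 0.80 for Zfp618 and 0.72 for Sugct.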

How the data were processed

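Single-nucleus RNA counts were taken as the authors deposited them: raw counts of UMIs per gene and barcode, not normalized, for 6 libraries of 1 sample each (5 rat, 1 cow). Per the study's methods, Parse reads were processed with split-pipe against GRCr8 (rat) and ARS-UCD1.3 (cow), and the 10x reads with Cell Ranger against Rnor_6.0, and nuclei were called before deposit. Metadata columns of the deposited Parse files hold the well of each barcode. No clustering and no doublet or ambient RNA correction was applied here.

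UMIs were summed over all barcodes and given as CPM, counts per 1000000 UMIs of the library, with exact 95% intervals. Shares of positive nuclei were also taken after thinning nuclei to 200 UMIs and leaving out shallower ones. A gene with at least 20 UMIs was called at a 2-fold CPM ratio, and 3 counts were the floor. A class required exactly 1 of 5 markers. Symbols matched rat and cow genes. Genes alike by r needed at least 200 UMIs over the 4 libraries, and 10 CPM were added before the log. With 1 library per condition, no test between conditions was made, which takes the place of any count model. The named genes were all 9 members, the 5 class markers, Ucp1, at most 6 listed pathway genes per comparison with the largest ratio among those with at least 50 UMIs, and at most 3 genes alike per member. Some genes that this rule names are not reported here. Other list genes named by group were chosen with their values seen. The members and lists were chosen with earlier results of these data known. Sequences came from RefSeq. The ratio step was checked on simulated Poisson counts, the model that its intervals assume. This check therefore says nothing about spread beyond counting error. Python 3.11.15, numpy 2.4.6, scipy 1.17.1, pandas 2.3.3 and matplotlib 3.10.9 were used. Alternatives were other nucleus filters, other class rules, other folds, minimum UMIs, other totals, and leaving out Ucp1-positive nuclei, the last chosen after seeing the data.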

Additional observations from a re-analysis of the deposited data

How the results depend on the processing

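No paired analysis was possible because each condition held 1 library, and for the same reason no library could be left out. The counts of members called kept within 1.5 times under single-marker classes, classes from marker lists, no minimum of UMIs, a fold of 1.5, the study's nucleus limits, totals without the 50 most abundant genes, centring on the median gene, taPVAT in place of BAT and RP fat in place of mesPVAT. Single values were less steady than these counts. Log2 ratios left their counting interval in 48 of 92 cases with single-marker classes, 37 of 93 with marker lists and 38 of 68 when centred. With the study's limits 8 of 68 did. Levels left theirs in 31 of 54 cases when averaged over nuclei and 41 of 108 in single wells. With a fold of 3 in place of 2, the members called higher in Plin1-positive nuclei came to 1 in 10x mesPVAT, 2 in mesPVAT and 0 in RP fat, and those higher in mesPVAT than in RP fat to 0. With nuclei of at least 500 UMIs only, the number called in RP fat was 1, and with Plin1-positive nuclei only, the number between mesPVAT and RP fat was 1. These restrictions leave fewer nuclei and UMIs.

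Called values whose direction reversed concerned genes that are no members: Gng2 in Plin1-positive nuclei of 10x mesPVAT had a log2 ratio of 0.99 in nuclei of at least 500 UMIs against -3.34 over all, and Adcy4 between mesPVAT and RP fat had -0.43 in Plin1-positive nuclei against 1.72. Ratios of members that were not called changed sign as well: in Plin1-positive nuclei, Adrb1 in RP fat went from a log2 ratio of -0.57 to 0.69 (marker lists), Adrb1 in mesPVAT from -0.24 to 0.36 and Gnas in RP fat from -0.13 to 0.44 (both at 500 UMIs or more), and Adcy3 went from -0.41 to 0.52 between BAT and mesPVAT (centred) and from -0.21 to 0.51 between mesPVAT and RP fat (Plin1-positive nuclei). Other, smaller changes of sign concerned Adcy3, Adcy5, Pde4b, Pde4d and Gnas. The cause was not tested. Of levels, 10x mesPVAT at 500 UMIs or more gave 155 CPM for Pde4b and 651 for Pde4d, the study's limits gave 151 CPM for cow Pde3b, and averaging nuclei gave 105 CPM for taPVAT Pde4b. Depth limits RP fat and 10x mesPVAT most: levels under 3.55 and 2.42 CPM there lie under 3 counts.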
